A study of Mus musculus with 4 samples.

Results

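The genes described here encode protein kinases and protein phosphatases of cell signalling, together with their activators, inhibitors, scaffolds and regulatory subunits. They were chosen by gene symbol from the deposited table, by the name stems Map2k, Map3k, Map4k, Mapk, Camk, Prk, Csnk, Cdk, Pak, Mark, Stk, Dclk, Gsk3, Nek, Akt, Ppp, Ptpr, Ptpn and Dusp, and by a mean expression level of at least 1 over the 4 samples. The rule left out Cdk1, Ptprz1 and Ppp1r14a. Of 5282 listed genes, 106 had a matching symbol and 102 were members, 51 on the kinase side and 51 on the phosphatase side. Members just inside the level threshold were Ptpn14 at a mean level of 1.52 and Map3k14 at 1.69, and the matching genes just outside it were Mapk15 at 0.533 and Ppp1r3b at 0.385.

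RNA was taken from dissected corpus callosum and cortex, pooled, of mice at postnatal day 15, in 2 samples of genotype Pdgfra-creER;SmoM2 (SmoM2) and 2 of wild type (WT). SmoM2 is a mutant Smoothened that stays switched on, and Smoothened is the transducer through which hedgehog ligands act. Pdgfra-creER is a tamoxifen-inducible recombinase driven from the Pdgfra locus, which is active in oligodendrocyte precursors and in fibroblasts. Mice of both groups received tamoxifen from postnatal day 5 to 7, and the study asked which genes Smoothened regulates. The labels do not say whether the samples of a group came from separate animals, so p-values measure the spread between these samples, which may be technical.

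Protein kinases attach phosphate to serine, threonine or tyrosine residues, and phosphatases remove it, so that the balance between them sets the activity of their substrates. MAP kinases relay signals through cascades in which each kinase activates the next. Calcium acts through calmodulin on the CaMK kinases and on the phosphatase calcineurin, and in brain these enzymes adjust synapses. Many phosphatases have few catalytic subunits and many regulatory partners, which choose the substrate.

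The table lists genes that the authors selected at an unadjusted p of at most 0.05, so every member differed by that measure between these samples. A gene is said to have risen or fallen, or to be called, when its adjusted p was no more than 0.05 in the authors' deposited table. Changes given in log2 units are the log2 fold changes, SmoM2 over WT, of that table, and levels are its expression values. By the call rule 26 members rose and 19 fell, 45 of 102 or 44.1%. The share among all 4845 listed genes at or above the level threshold was 38.9%, with 22% rising and 16.9% falling, so the members were called about as often as the list they came from. Over all tests that the deposited values imply, the share called was 3.45%. Of the members 51 had a log2 fold change above 0, 50%, and of all listed genes 52.5%. Fold changes were moderate: the median absolute log2 fold change of the members in the authors' deposited table was 0.36, against 0.41 for all listed genes, and the extremes were -0.84 and 0.88. The SmoM2 and WT levels did not overlap for 51 members with higher and 42 with lower levels in SmoM2, and 9 overlapped. Without overlap were 91.2% of members and 85% of all listed genes, of which 49.5% were higher and 35.5% lower. Among annotated protein-coding genes, 103 of 315 with a matching symbol had a row in the table, 32.7%, against 4807 of 21951, or 21.9%, of all. Both counts take every annotated gene, expressed in this tissue or not. The shares were not matched for level and not tested, so they do not show that such genes changed more often. A recalculation from the levels with limma, adjusted over the 57010 tests that the deposited values imply, called 0 members and 6 of all listed genes. At an unadjusted limma p under 0.05 there were 61 members, beside 55.5% of all listed genes.

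Catalytic genes were split nearly evenly by direction, and their partners less so. The share called was 43.9% of catalytic kinases and 50% of kinase partners, beside 38.9% of all listed genes. It was 55.6% of catalytic phosphatase genes and 29.2% of phosphatase partners, and these shares were not tested. Of 41 catalytic kinases 21 were higher in SmoM2 and 20 lower, and 18 were called, 11 upward and 7 downward. The 10 kinase partners, which are activators, inhibitors and scaffolds, were higher in 8 cases, and 4 rose and 1 fell. Of 27 catalytic phosphatase genes 13 were higher and 14 lower, with 8 rising and 7 falling, counting the pseudogene Ppp1ccb among the falling ones. The 24 regulatory subunits and inhibitors of phosphatases were lower in 15 cases, and 3 rose and 4 fell. Counts also differed by family. The MAP kinase cascade had 14 members, of which 6 rose and 0 fell. Receptor tyrosine phosphatases had 8 members, of which 4 rose and 0 fell. Calcineurin, PP4 and PP6 genes made up 8 members, all at lower mean levels in SmoM2, and 4 fell. The 6 members for protein kinases A, C and D and AMP-activated kinase were all lower, and 1 fell. None of these family counts was tested against the list.

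**Figure D1:**
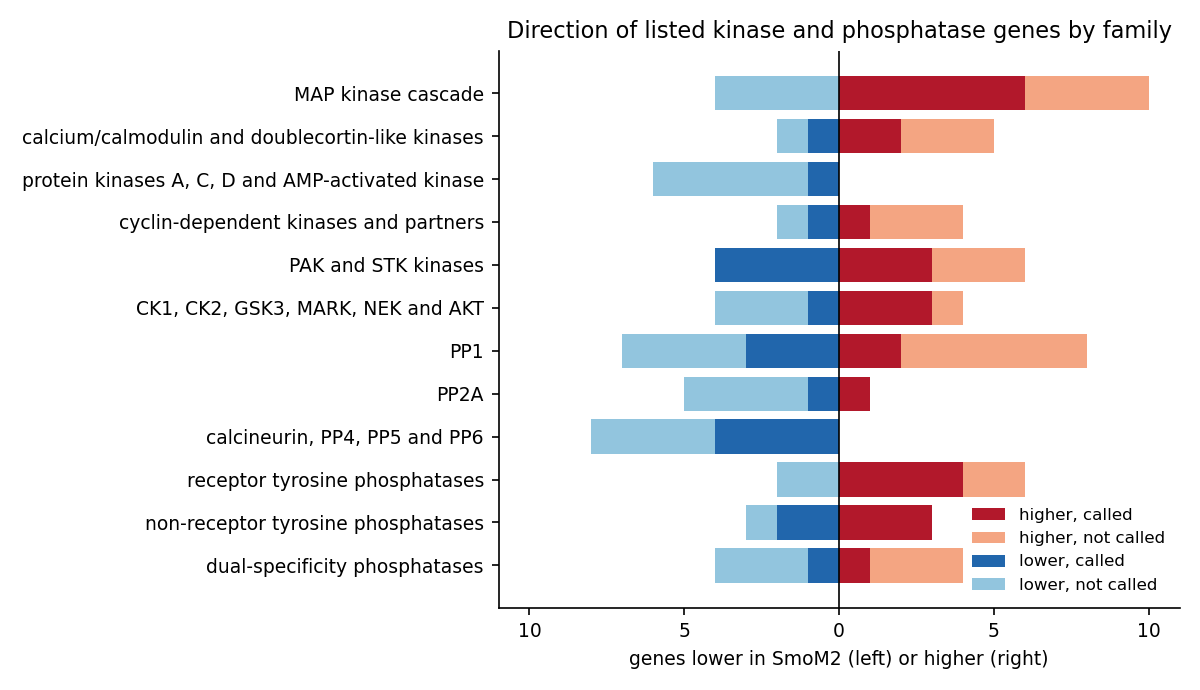
Number of member genes with a lower (left) or higher (right) level in SmoM2 by family, from the deposited log2 fold change. Dark bars are genes called in the authors' deposited table. All 8 calcineurin, PP4 and PP6 genes lie to the left and 10 of 14 MAP kinase cascade genes to the right.

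The direction of the members followed the base composition of their transcripts. For each gene the share of G and C in its longest protein-coding transcript was taken from the GENCODE M21 annotation of GRCm38. All 40 members with a transcript GC of 55% or more were higher in SmoM2. Of 35 members under 46% GC, 34 were lower, and Camk2d was the exception. Between 46% and 50% GC 2 of 13 were higher, and between 50% and 55% 8 of 13 were higher. The median transcript GC was 58.2% for the 51 higher members and 44.7% for the 50 lower members with a transcript. Kinases and phosphatases showed it alike. On the kinase side 23 of 23 members at 55% GC or above were higher and 16 of 17 under 46% were lower. On the phosphatase side the counts were 17 of 17 and 18 of 18.

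Across the 101 members with a protein-coding transcript, Spearman's rho between transcript GC and the log2 fold change of the authors' deposited table was 0.769, and Pearson's r was 0.807. It was 0.73 over the 51 kinase-side genes and 0.794 over the 50 phosphatase-side genes. The whole list behaved alike, with rho of 0.657 over 4501 listed genes. Among listed genes outside the members, 95.5% were higher at 55% GC or above and 6.29% under 46%. These coefficients are across genes that share the same 4 libraries, and genes are not independent replicates. Within the members, rho was 0.706 with the GC of the coding sequence, 0.633 with GC at the third codon position, and 0.709 with the GC of the 3' UTR. It was -0.49 with 3' UTR length and 0.071 with mean level. Lower members had a median 3' UTR of 2728 bases and higher members of 1030 bases. The relation was present where the authors' test made no call, with rho of 0.796 over 57 members, and 0.66 over the 44 called ones.

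**Figure D2:**
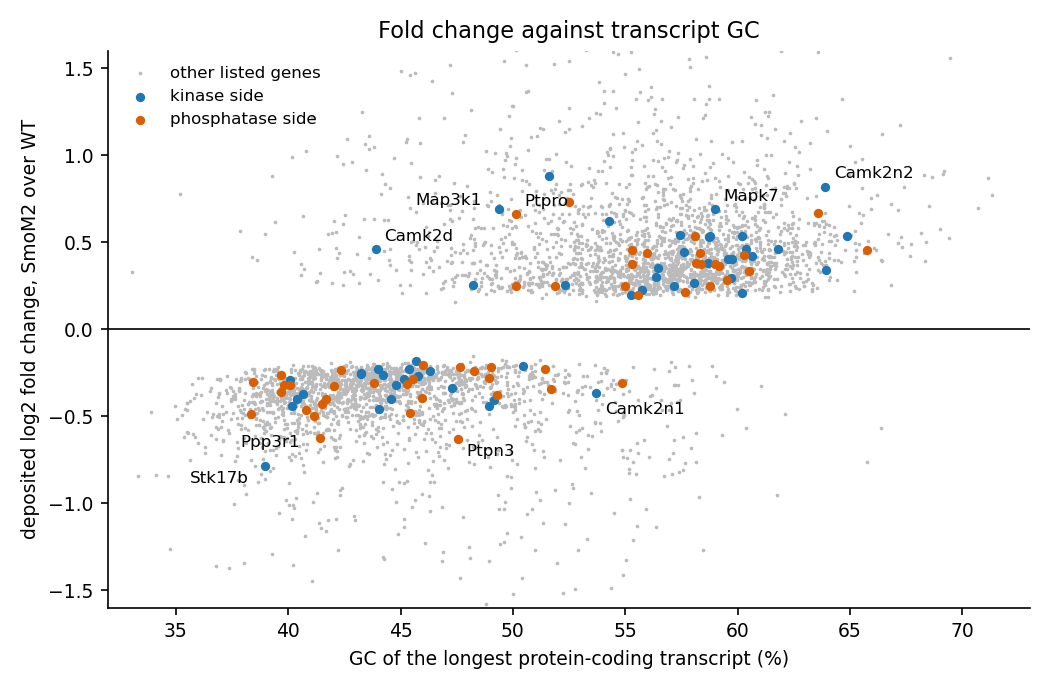
Log2 fold change, SmoM2 over WT, in the authors' deposited table against transcript GC in percent, for kinase-side members (blue), phosphatase-side members (orange) and other listed genes (grey, 75 of 4400 outside the axes). The empty band around 0 is where genes failed the authors' selection by p. Members at 55% GC or above all lie above 0, and Camk2d is the only member above 0 under 46%.

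The coding sequence itself shows the contrast. A stretch of 40 codons is given from each of a pair of called kinases at opposite ends of the GC range. Both start at the codons of the histidine-arginine-aspartate motif of the catalytic loop, which many but not all protein kinases have. Capitals mark G or C at the last position of a codon. Map3k10 (chromosome 7, 27656375 to 27674598, minus strand) had the highest transcript GC of the called kinases, and Nek7 (chromosome 1, 138482875 to 138620141, minus strand) the lowest among those with this motif. The bases are coding bases 658 to 777 of Map3k10 and 475 to 594 of Nek7, read 5′ to 3′ from GENCODE M21 transcripts of GRCm38.
Map3k10: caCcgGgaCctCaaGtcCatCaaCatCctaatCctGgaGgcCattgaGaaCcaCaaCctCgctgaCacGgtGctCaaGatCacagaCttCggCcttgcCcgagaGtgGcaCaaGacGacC
Nek7: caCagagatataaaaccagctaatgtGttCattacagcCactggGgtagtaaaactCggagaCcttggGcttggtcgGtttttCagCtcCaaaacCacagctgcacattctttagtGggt
In this stretch of the Map3k10 transcript 34 of 40 last codon positions, 85%, were G or C, and in that of Nek7 14 of 40, or 35%. The contrast is wider here than over the whole coding sequences, where 73.3% and 44.4% of last codon positions were G or C. Map3k10, which encodes the mixed-lineage kinase MLK2 of the JNK pathway, had levels of 232 and 212 in SmoM2 and 154 and 160.1 in WT. Map3k10 rose by 0.53 log2 units in the authors' deposited table (adjusted p = 7.43e-06). Nek7, a kinase of the mitotic spindle and of the inflammasome, had levels of 9.80 and 9.91 in SmoM2 and 13.0 and 14.3 in WT. Both SmoM2 samples were below both WT samples, and Nek7 fell by 0.40 log2 units (adjusted p = 0.0437) in the authors' deposited table.

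The DNA before the start sites did not show this split. RefSeq windows of the GRCm38.p6 assembly were found for 83 members and 19 had none. The 250 bases before the start had a median GC of 64.4% for 43 higher and 65% for 40 lower members, above the 52.4% over all RefSeq windows. Spearman's rho between promoter GC and the deposited log2 fold change was 0.00654 over these 83 members, and rho between promoter GC and transcript GC was 0.0442 over 82. The 250 bases before the start are shown for 3 called members. Camk2d rose with an AT-rich transcript (43.9% GC), Map2k2 rose with a GC-rich transcript (60.4%), and Prkaa2 fell with an AT-rich transcript (40.7%). The Camk2d window lies inside its annotated gene, which starts at 126596302, and overlap with exons was not tested. Capitals mark GC boxes, the letters GGGCGG on either strand. The windows are chr3:126596701-126596950 (plus strand), chr10:81105665-81105914 (plus strand) and chr4:105109899-105110148 (minus strand), each printed 5′ to 3′ on the gene's strand.
Camk2d: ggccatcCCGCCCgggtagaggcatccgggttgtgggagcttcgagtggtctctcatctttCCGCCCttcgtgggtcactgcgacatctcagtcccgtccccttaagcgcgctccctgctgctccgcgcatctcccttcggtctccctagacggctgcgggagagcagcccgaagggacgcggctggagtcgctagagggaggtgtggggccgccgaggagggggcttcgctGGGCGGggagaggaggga
Map2k2: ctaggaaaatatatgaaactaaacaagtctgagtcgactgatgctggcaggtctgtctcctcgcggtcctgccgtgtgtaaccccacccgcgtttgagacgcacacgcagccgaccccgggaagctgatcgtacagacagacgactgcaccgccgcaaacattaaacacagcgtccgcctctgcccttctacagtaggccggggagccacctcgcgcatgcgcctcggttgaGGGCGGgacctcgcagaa
Prkaa2: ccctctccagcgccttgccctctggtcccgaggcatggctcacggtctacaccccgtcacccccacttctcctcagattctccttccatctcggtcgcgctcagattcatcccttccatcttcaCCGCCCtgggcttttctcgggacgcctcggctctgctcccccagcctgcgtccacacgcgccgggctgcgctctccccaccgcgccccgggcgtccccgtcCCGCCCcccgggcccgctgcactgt
Promoter GC was 68.4% for Camk2d, 59.6% for Map2k2 and 70% for Prkaa2, so the falling gene had the richest of these 3 promoters. The windows hold 3, 1 and 2 GC boxes. Over all member windows 66.4% held a GC box, against 32.7% of all 32851 RefSeq windows. The cyclic AMP response element TGACGTCA, its own reverse complement, was in 8 of 110 member windows, 7.27% against 1.55% of all. Those windows belong to Csnk1g2, Dusp8 and Ptpru with higher levels and Dusp1, Pak1, Ppp2r2d and Prkar1a with lower levels. The GLI motif GACCACCCA, searched on both strands, matched 0 of 110 member windows and 0.225% of all. A match is a run of letters and not a measured site. These shares are set against all RefSeq windows, which have a lower median GC, and not against windows of other listed genes or of like GC. Whether they are particular to the members was not tested.

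Differences between samples of the same group also followed transcript GC, more weakly. Over 4501 listed genes, rho between transcript GC and the log2 level difference of replicate 1 minus replicate 2 was 0.239 in WT and -0.164 in SmoM2, and over the 101 members 0.285 and -0.114. To see which members stood apart from the trend, a smooth curve of each sample's deviation on transcript GC was fitted over all listed genes and subtracted. This alternative was chosen after seeing the data, and the curve comes from a list selected by p. Genes near 0 are missing from that list. A gene whose direction differs from most genes of like GC may therefore lie far from the curve even if its own difference is small. Standard errors given after removal leave out the error of the curve. The median absolute limma difference on log2(level + 1) of the 101 members went from 0.326 to 0.104. Members with an absolute difference above 0.3 went from 61 to 13. The sign stayed for 61 members and turned for 40, among them 10 of the 44 called ones. The 13 off the trend were Camk2d, Map3k1, Ptpro, Camk4, Stk32b and Camk2n2 on the higher side and Dusp1, Camk2n1, Ppp1r16b, Ptpn3, Prkcb, Stk39 and Stk17b on the lower side. The source of the relation with transcript GC was not tested.

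**Figure D3:**
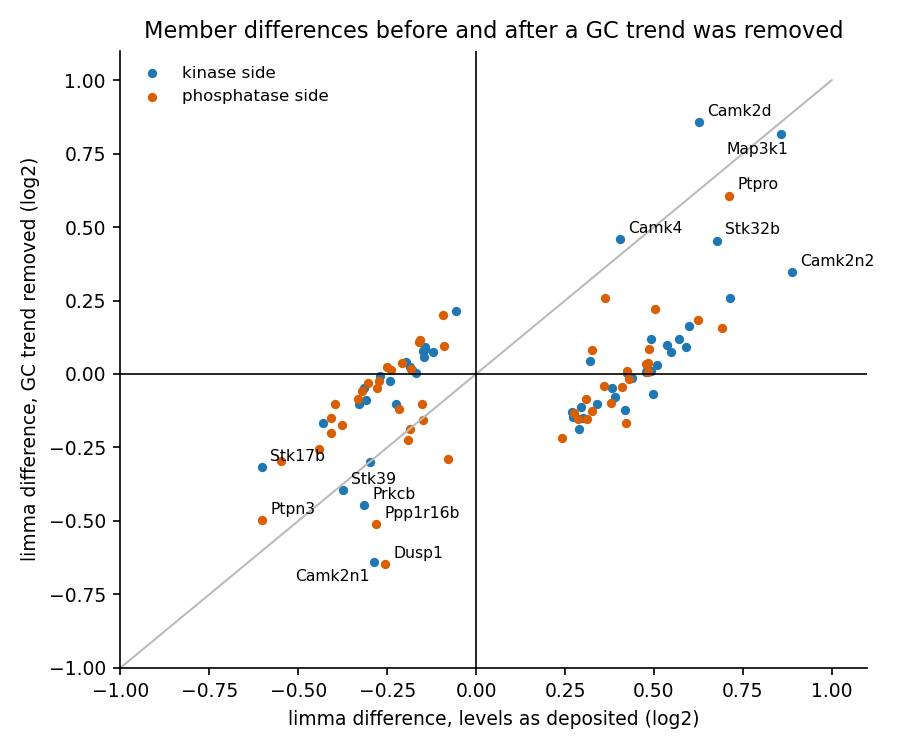
Limma difference on log2(level + 1), SmoM2 minus WT, of each member from the levels as deposited (horizontal) and after a transcript GC trend was removed (vertical), with kinase-side members in blue, phosphatase-side members in orange and equality as the grey line. Named points are the 13 members with an absolute difference above 0.3 after removal, and 40 of 101 members lie in the quadrants where the sign turned.

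The tissue of both groups was mixed. All 12 mature oligodendrocyte and myelin genes on a marker list fell, and their summed levels were 3064 to 3454 in SmoM2 and 6022 to 6408 in WT. Their transcript GC ran from 38.0% to 57.6% with a median of 50.4%. Of 8 newborn neuron markers 5 had a row, all higher, and 4 rose, with sums of 1209 to 1291 against 661 to 723. Of 9 meningeal fibroblast markers 8 rose, with sums of 1738 and 1813 in SmoM2 and 979 and 349.9 in WT. Most of each sum was Ptgds, at 1641 and 1727.5 in SmoM2 and 933 and 313 in WT. Choroid plexus markers were lower (6 of 8 fell, with sums of 153 and 726 against 1367 and 1402), and so were all 5 blood markers (65.6 and 120.4 against 662 and 449.8). Of the choroid plexus sums, Ttr alone gave 71.2 and 618 in SmoM2 and 1203 and 1162 in WT. No listed marker was at 0 in all samples. In bulk samples fewer cells of a type and less RNA per cell cannot be told apart, and the part of these cell types in the kinase and phosphatase levels was not tested.

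Among calcium-dependent kinases, the delta subunit of CaMKII and both CaMKII inhibitor genes changed. Camk2d, one of the genes for the multimeric kinase CaMKII (chromosome 3, 126596302 to 126846326), had levels of 71.98 and 82.4 in SmoM2 and 51.3 and 47.9 in WT. Both SmoM2 levels were above both WT levels. It rose by 0.46 log2 units in the authors' deposited table (adjusted p = 0.00118). With the GC trend removed its limma difference on log2(level + 1) was 0.86 ± 0.12 (SE), larger than the 0.63 ± 0.11 from the levels as deposited. Camk2n2, which encodes an inhibitor protein of CaMKII, had 273 and 257 in SmoM2 and 139 and 147 in WT, and the groups were far apart. In the authors' deposited table it rose by 0.82 log2 units (adjusted p = 9.47e-12). Camk2n1, which encodes the other inhibitor protein, had 427 and 419.7 in SmoM2 and 514 and 519 in WT. Camk2n1 fell by 0.36 log2 units (adjusted p = 0.000826) in the authors' deposited table, at a transcript GC of 53.7%, in the range of 50% to 55% where 74.6% of the other listed genes were higher. The inhibitor pair moved in opposite directions. The limma difference on log2(level + 1) went from 0.89 to 0.35 for Camk2n2 and from -0.29 to -0.64 for Camk2n1 with the GC trend removed. The paralogous doublecortin-like kinases Dclk1 and Dclk2, which bind microtubules, were not called. Dclk1 had 272 and 286 in SmoM2 and 304 and 324 in WT, and Dclk2 had 55.8 and 57.1 against 44.5 and 45.5. Camk4, a nuclear calmodulin-dependent kinase, had 29.2 and 32.4 in SmoM2 and 22.5 and 23.5 in WT and was not called (adjusted p = 0.425 in the authors' deposited table).

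Calcineurin, the calcium-activated phosphatase made of a catalytic A and a regulatory B subunit, had 3 of its 5 genes in the table, and all 3 fell. Of all listed genes 16.9% fell, and the count of 3 was not tested. Ppp3r1, the B subunit gene of highest level among all phosphatase-side members, had 419 and 455 in SmoM2 and 618 and 661 in WT. Its groups did not overlap, and in the authors' deposited table it fell by 0.63 log2 units (adjusted p = 1.71e-10). Ppp3ca, for the A-alpha catalytic subunit, had 337 and 396 in SmoM2 and 442 and 509 in WT. Ppp3ca fell by 0.48 log2 units in the authors' deposited table (adjusted p = 4.89e-06). Ppp3cb, for the A-beta subunit, had 207 and 219.6 against 254 and 254, and the WT samples were nearly equal. Ppp3cb fell by 0.32 log2 units in the authors' deposited table (adjusted p = 0.0201). The transcripts have 41.4%, 45.4% and 39.8% GC, in the range where 6.29% of the other listed genes were higher. With the GC trend removed the limma difference was -0.29 ± 0.10 (SE) for Ppp3r1 and -0.17 ± 0.10 for Ppp3ca, and it was 0.02 ± 0.11 for Ppp3cb, on log2(level + 1).

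Of 16 partners of calmodulin and calcineurin, 9 had a row, and 2 rose and 4 fell. This made 66.7% called, beside 38.9% of all listed genes, and it was not tested. Calm2, which encodes calmodulin, fell by 0.32 log2 units in the authors' deposited table (adjusted p = 0.00257). Rcan3, a regulator of calcineurin, had 24.7 and 26.8 in SmoM2 and 16.2 and 15.9 in WT. It rose by 0.57 log2 units in the authors' deposited table (adjusted p = 3.91e-05). Its relative Rcan2 had 52.1 and 52.4 in SmoM2 and 55.9 and 67.5 in WT and fell by 0.34 log2 units (adjusted p = 0.0465) in the authors' deposited table. Cabin1, a calcineurin-binding inhibitor, rose by 0.36 log2 units (adjusted p = 0.0334 in the authors' deposited table). Transcript GC was 42.7% for Calm2 and 45.9% for Rcan2, which fell, and 50.8% for Rcan3 and 56.6% for Cabin1, which rose. Itpka, a further partner that fell (adjusted p = 0.0455 in the authors' deposited table), had 61.1%. The lists of partners were chosen with results of these data known and give no independent support.

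**Figure D4:**
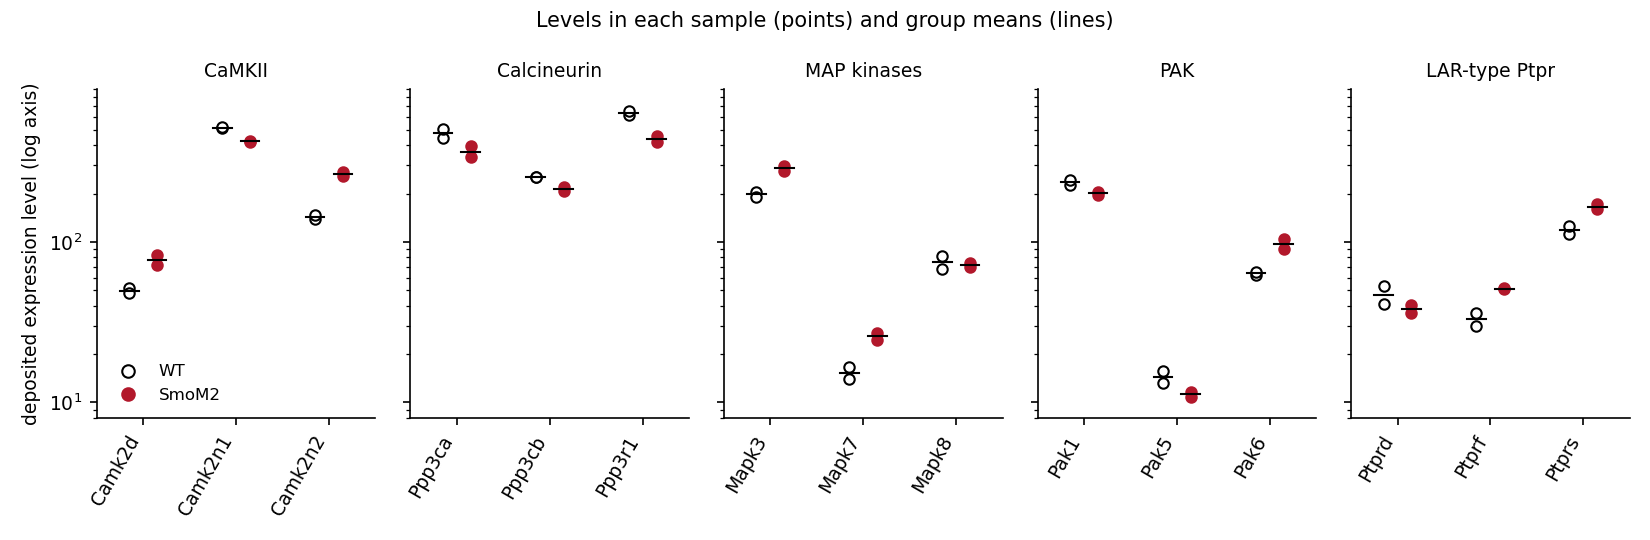
Deposited expression level (log axis) of 15 members in each WT (open) and SmoM2 (filled) sample, with group means as lines. The 3 calcineurin genes lie lower in SmoM2, while Camk2n2, Mapk7, Mapk3, Pak6, Ptprf and Ptprs lie higher than their counterparts in WT.

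Of the 14 members of the MAP kinase cascade 6 rose, 0 fell and 8 were not called. The share called was 42.9%, near the 38.9% of all listed genes. Mapk7, which encodes ERK5, had 24.4 and 27.1 in SmoM2 and 14.1 and 16.6 in WT. It had the largest change of the cascade among called genes, 0.69 log2 units in the authors' deposited table (adjusted p = 1.20e-05). Mapk3, for ERK1, had 277 and 299 in SmoM2 and 205 and 192 in WT. Its groups were apart, and it rose by 0.44 log2 units in the authors' deposited table (adjusted p = 0.000809). Map2k2, for the ERK kinase MEK2, had 109 and 114 in SmoM2 and 80.0 and 76.3 in WT. Map2k2 rose by 0.46 log2 units in the authors' deposited table (adjusted p = 0.00166). Removing the GC trend took the limma difference on log2(level + 1) from 0.72 to 0.26 for Mapk7, from 0.54 to 0.10 for Mapk3 and from 0.51 to 0.03 for Map2k2.

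The JNK branch gave a similar picture. Map3k9, which encodes the mixed-lineage kinase MLK1, had 14.5 and 14.3 in SmoM2 and 9.08 and 9.61 in WT. Like Map3k10 it rose, by 0.54 log2 units in the authors' deposited table (adjusted p = 0.00264). Mapk8ip1 encodes the scaffold JIP1, which holds these kinases and JNK together, and had 356 and 358 in SmoM2 and 256 and 255 in WT. The replicates were nearly equal, and Mapk8ip1 rose by 0.40 log2 units in the authors' deposited table (adjusted p = 0.000866). The scaffolds Mapk8ip2 and Mapk8ip3 were at 0.20 and 0.25 log2 units in the authors' deposited table and were not called, and neither overlapped between groups. Mapk8, the JNK1 gene itself, had 73.7 and 69.4 in SmoM2 and 67.8 and 81.7 in WT, which overlap, and it was not called. Map3k7, for TAK1, had 18.3 and 17.7 in SmoM2 and 19.4 and 21.9 in WT and was not called either. Map3k1, for MEKK1, had 5.87 and 1.86 in SmoM2 and 1.27 and 1.64 in WT. Only SmoM2 replicate 1 was high, and without it the limma difference on log2(level + 1) went from 0.86 to 0.22. That sample also had the highest summed level of olfactory bulb markers, 73.9, against 21.3 in the other SmoM2 sample and 17.5 and 13.3 in WT, and the part of such tissue was not tested. Removing the GC trend took the limma difference on log2(level + 1) from 0.57 to 0.12 for Map3k9 and from 0.48 to 0.01 for Mapk8ip1, and turned its sign for Map3k10, Mapk8, Map3k7, Mapk8ip2 and Mapk8ip3.

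Outside the rule, 11 of 28 genes on a list of MAP kinase partners had a row, with 1 rising and 2 falling. This made 27.3% called, beside 38.9% of all listed genes. Mknk2, a kinase downstream of ERK, rose by 0.44 log2 units (adjusted p = 0.00482 in the authors' deposited table). Spred1, an inhibitor of Ras to Raf signalling, had 30.2 and 29.7 in SmoM2 and 39.3 and 40.4 in WT. It fell by 0.50 log2 units (adjusted p = 0.000310) in the authors' deposited table. Braf, a kinase that activates the MEK kinases, fell by 0.40 log2 units (adjusted p = 0.0107 in the authors' deposited table).

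The genes for protein kinases A, C and D and for AMP-activated kinase were lower with little support gene by gene. Prkcb, for protein kinase C beta, was the most abundant, at 367 and 384 in SmoM2 and 432 and 506 in WT. Its groups did not overlap, yet its adjusted p in the authors' deposited table was 0.386. With the GC trend removed the limma difference of Prkcb on log2(level + 1) was -0.45 ± 0.10 (SE), against -0.32 ± 0.11 before, and without WT replicate 2 the latter was -0.20. Prkaa2, for a catalytic subunit of the energy sensor AMP-activated kinase, had 9.40 and 8.46 in SmoM2 and 10.2 and 11.8 in WT. It was the only member of this family that fell by the call rule, at -0.37 log2 units in the authors' deposited table (adjusted p = 0.0323). Without WT replicate 2 its limma difference on log2(level + 1) went from -0.27 to -0.17, and with the GC trend removed it was -0.0079. Its paralog Prkaa1 had 6.71 and 6.42 in SmoM2 and 8.27 and 8.55 in WT (adjusted p = 0.0668 in the authors' deposited table). Prkacb and Prkar1a, for a catalytic and a regulatory subunit of protein kinase A, were at -0.23 and -0.18 log2 units in the authors' deposited table and were not called. Their limma differences on log2(level + 1) turned to 0.06 and 0.08 with the GC trend removed. Prkd1, for protein kinase D1, had 4.52 and 3.90 in SmoM2 and 5.87 and 4.95 in WT and was not called. Among 25 listed cyclic AMP, protein kinase A and protein kinase C partners, 8 had a row, and 5 rose and 0 fell. This made 62.5% called, beside 38.9% of all listed genes, and it was not tested. Akap12, an anchoring protein, Adcy5, an adenylyl cyclase, and Marcksl1, of a family of protein kinase C substrates, rose by 0.52, 0.48 and 0.41 log2 units in the authors' deposited table (adjusted p = 0.00308, 0.000316 and 0.000416).

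Kinases known to act on Gli proteins or on Smoothened were examined because the study activates Smoothened. Of 18 such genes 6 had a row and 0 were called by the authors' adjusted p, beside 38.9% of all listed genes. By unadjusted limma p under 0.05, 1 of the 6 passed, beside 55.5% of all listed genes. By adjusted limma p 0 passed. With 6 genes these counts were not tested against the list. All 6 were members. Csnk1g2, a casein kinase 1 gamma gene, had 172 and 165 in SmoM2 and 136 and 139.9 in WT, and its paralog Csnk1g3 had 34.4 and 27.6 against 34.2 and 36.7. Csnk1a1, for casein kinase 1 alpha, had 154 and 149.9 in SmoM2 and 156 and 182 in WT. Stk36, the mammalian relative of the fly hedgehog kinase fused, had 2.12 and 2.30 in SmoM2 and 1.71 and 0.920 in WT. Prkacb and Prkar1a, described with protein kinase A, complete the group. Removing the GC trend turned the sign of the limma difference for each of these genes except Stk36.

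The PAK kinases, effectors of the small GTPases Rac and Cdc42, divided. Of 6 PAK genes 3 had a row and all 3 were called, beside 38.9% of all listed genes. A count of 3 is small, and it was not tested. Pak6 had 105 and 90.1 in SmoM2 and 62.4 and 65.3 in WT. It rose by 0.54 log2 units in the authors' deposited table (adjusted p = 1.43e-05). Pak1 had 196 and 206 in SmoM2 and 226 and 244 in WT and fell by 0.34 log2 units (adjusted p = 0.0149) in the authors' deposited table. Pak5, which like Pak6 belongs to the second PAK group, had 11.6 and 10.8 against 13.2 and 15.7. Pak5 fell by 0.46 log2 units in the authors' deposited table (adjusted p = 0.00860), and without WT replicate 2 its limma difference on log2(level + 1) went from -0.33 to -0.21. The rising gene has a transcript GC of 57.4%, and the falling genes have 47.3% and 44.0%. GC trend removal took the limma difference on log2(level + 1) from 0.60 to 0.16 for Pak6, from -0.23 to -0.10 for Pak1 and from -0.33 to -0.10 for Pak5.

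Other serine and threonine kinases with STK symbols also went both ways, with 2 rising and 2 falling of 7. This made 57.1% called, beside 38.9% of all listed genes. Stk32b, a little-studied kinase at a low level, had 2.94 and 4.09 in SmoM2 and 1.80 in both WT samples. It had the largest rise of all members, 0.88 log2 units in the authors' deposited table (adjusted p = 0.0152). Its paralog Stk32c had 115 and 133 in SmoM2 and 92.5 and 89.5 in WT and rose, by 0.38 log2 units (adjusted p = 0.0134 in the authors' deposited table). Stk17b, a kinase of the death-associated family, had 5.04 and 5.14 in SmoM2 and 7.43 and 9.13 in WT. Stk17b fell by 0.78 log2 units in the authors' deposited table (adjusted p = 0.00138). Stk39, for the kinase SPAK that controls chloride cotransporters, had 24.6 and 23.8 against 29.6 and 33.9. It fell by 0.41 log2 units in the authors' deposited table (adjusted p = 0.0105), and its limma difference on log2(level + 1) was -0.37 ± 0.12 (SE) before and -0.39 ± 0.11 after removal of the GC trend. Stk11, for the tumour suppressor LKB1, had 60.9 and 62.8 in SmoM2 and 45.99 and 47.95 in WT and was not called (adjusted p = 0.127 in the authors' deposited table). The other limma differences on log2(level + 1) shrank with the GC trend removed, from 0.68 to 0.45 for Stk32b and from -0.60 to -0.32 for Stk17b, and turned from 0.44 to -0.01 for Stk32c and from 0.39 to -0.08 for Stk11.

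Akt1, its substrate gene Akt1s1 and Mark4 rose. Akt1, a kinase downstream of phosphoinositide 3-kinase, had 148 and 155 in SmoM2 and 104 and 113 in WT. Akt1 rose by 0.40 log2 units in the authors' deposited table (adjusted p = 0.00476). Akt1s1 encodes PRAS40, an AKT substrate that inhibits mTOR complex 1, and had 134 and 124 in SmoM2 and 77.7 and 94.0 in WT. Akt1s1 rose by 0.46 log2 units in the authors' deposited table (adjusted p = 0.00149). Mark4, which phosphorylates microtubule-associated proteins such as tau, had 82.2 and 85.6 against 55.9 and 63.1 and rose, by 0.42 log2 units (adjusted p = 0.00308 in the authors' deposited table). After removal of the GC trend the limma differences on log2(level + 1) were 0.01 for Akt1, 0.09 for Akt1s1 and 0.01 for Mark4. Of 22 listed phosphoinositide 3-kinase and mTOR genes, 8 had a row, 1 rose and 1 fell, 25% called beside 38.9% of all listed genes. Pik3r2, a regulatory subunit of that kinase, rose by 0.34 log2 units (adjusted p = 0.0226 in the authors' deposited table).

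Of 6 cyclin-dependent kinase genes and partners, 1 rose and 1 fell, 33.3% called beside 38.9% of all listed genes. Cdk5r2 encodes p39, an activator of the neuronal kinase Cdk5, and had the highest mean level of the kinase-side members. Its levels were 566 and 543 in SmoM2 and 376 and 457 in WT, without overlap. It rose by 0.34 log2 units in the authors' deposited table (adjusted p = 0.00546), and its limma difference on log2(level + 1) turned from 0.42 ± 0.12 (SE) to -0.12 ± 0.10 with the GC trend removed. Cdk17, a PCTAIRE kinase of neurons, had 80.8 and 86.3 in SmoM2 and 100.1 and 108 in WT. It fell by 0.40 log2 units in the authors' deposited table (adjusted p = 0.00463), and its limma difference on log2(level + 1) went from -0.31 to -0.09 with the GC trend removed. Cdk18, a further PCTAIRE kinase, had 11.5 and 12.3 in SmoM2 and 10.9 and 8.59 in WT and was not called. Cdk19, of the Mediator complex, had 19.6 and 19.5 in SmoM2 and 21.2 and 23.4 in WT and was not called. Of 20 cyclins and inhibitors of cyclin-dependent kinases 11 had a row. Ccnd1, for cyclin D1, rose by 0.47 log2 units and Ccnh, for cyclin H, fell by 0.37 (adjusted p = 0.00320 and 0.0399 in the authors' deposited table).

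Protein phosphatase 1 has a few catalytic genes and many regulatory partners, and its 15 members split into 8 higher and 7 lower. Ppp1cb, the beta catalytic subunit gene, had 90.0 and 78.2 in SmoM2 and 90.8 and 121 in WT. WT replicate 2 stood well above the others, and without it the limma difference on log2(level + 1) went from -0.32 to -0.11. Without WT replicate 1 that difference was -0.53. Ppp1cb fell by 0.46 log2 units in the authors' deposited table (adjusted p = 0.000202). Ppp1ccb, annotated as a transcribed processed pseudogene related to Ppp1cc (chromosome 7, 119739926 to 119742226), had 18.2 and 26.9 in SmoM2 and 36.0 and 43.2 in WT. It was at -0.84 log2 units in the authors' deposited table (adjusted p = 0.000113), and the value is uncertain because reads may be shared with the near-identical parent gene. A pair of PP1 inhibitor genes rose. Ppp1r1a, for inhibitor 1, had 219 and 198 in SmoM2 and 172 and 152 in WT and rose by 0.37 log2 units (adjusted p = 0.0220 in the authors' deposited table). Ppp1r14b, for a smaller inhibitor protein, had 63.3 and 57.8 against 49.9 and 40.5. Ppp1r14b rose by 0.46 log2 units in the authors' deposited table (adjusted p = 0.0417), with a limma difference on log2(level + 1) of 0.42 that was 0.27 without WT replicate 2. Ppp1r16b, an endothelial targeting subunit, had 24.0 and 25.7 in SmoM2 and 31.1 and 29.8 in WT. Ppp1r16b fell by 0.34 log2 units in the authors' deposited table (adjusted p = 0.0422), at a transcript GC of 51.7%. With the GC trend removed the limma difference on log2(level + 1) went from -0.28 to -0.51 for Ppp1r16b and from -0.32 to -0.06 for Ppp1cb, and turned to -0.04 for Ppp1r1a and -0.17 for Ppp1r14b.

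PP2A, PP4 and PP6 were represented mostly by regulatory subunits. Of 6 PP2A members 1 rose and 1 fell, 33.3% called beside 38.9% of all listed genes. Ppp2r5b, a B56 subunit, had 168 and 181 in SmoM2 and 127 and 134 in WT. Ppp2r5b rose by 0.37 log2 units in the authors' deposited table (adjusted p = 0.00909). Ppp2r5c, of the same subfamily, had 179.8 and 171 in SmoM2 and 179 and 195 in WT, which overlap, and was not called. Ppp2r3a had 8.22 and 6.70 in SmoM2 and 8.55 and 9.35 in WT. Ppp2r3a fell by 0.43 log2 units in the authors' deposited table (adjusted p = 0.0411), and its limma difference on log2(level + 1), -0.24, ranged from -0.37 to -0.11 when either SmoM2 sample was left out. All 4 PP4 members of 6 annotated genes were lower and 1 fell. Ppp4r2, a regulatory subunit, had 21.7 and 20.2 in SmoM2 and 26.0 and 30.4 in WT and fell by 0.50 log2 units (adjusted p = 0.000537 in the authors' deposited table). Ppp4r3a, Ppp4r3b and Ppp4r4 were at -0.31, -0.32 and -0.39 log2 units in the authors' deposited table and were not called. Ppp6c, the PP6 catalytic gene, had 32.4 and 32.1 in SmoM2 and 33.1 and 35.7 in WT and was not called. On GC trend removal the limma difference on log2(level + 1) went from -0.41 to -0.15 for Ppp4r2 and turned from 0.41 to -0.05 for Ppp2r5b and from -0.24 to 0.01 for Ppp2r3a.

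Receptor tyrosine phosphatases span the membrane and carry adhesion-like outer parts, and 6 of their 8 members were higher. Ptpro had 38.8 and 37.1 in SmoM2 and 21.8 and 23.8 in WT. It rose by 0.66 log2 units in the authors' deposited table (adjusted p = 3.60e-07), and its limma difference on log2(level + 1) kept most of its size when the GC trend was removed, 0.71 ± 0.11 before and 0.61 ± 0.10 after (SE). The LAR-type receptors, which act in axon growth and synapse formation, had all 3 genes in the table. Ptprf, the LAR gene, had 51.6 and 50.8 in SmoM2 and 29.8 and 36.2 in WT. Ptprf rose by 0.54 log2 units in the authors' deposited table (adjusted p = 5.57e-05). Ptprs had 159.7 and 173 against 111 and 126, again without overlap. Ptprs rose by 0.42 log2 units in the authors' deposited table (adjusted p = 0.000494). Ptprd had 40.3 and 36.1 in SmoM2 and 40.9 and 52.9 in WT and was not called (-0.31 log2 units, adjusted p = 0.0726 in the authors' deposited table). The transcripts of Ptprf and Ptprs have 58.1% and 60.3% GC and that of Ptprd 43.8%. Ptpru had 21.3 and 26.4 in SmoM2 and 19.0 and 20.8 in WT. It rose by 0.36 log2 units in the authors' deposited table (adjusted p = 0.0363), and its limma difference on log2(level + 1), 0.24, was 0.39 without SmoM2 replicate 1 and 0.09 without SmoM2 replicate 2. GC trend removal took the limma difference on log2(level + 1) from 0.63 to 0.18 for Ptprf and from 0.48 to 0.01 for Ptprs, and turned that of Ptpru to -0.22.

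Of 6 non-receptor tyrosine phosphatase members 5 were called, beside 38.9% of all listed genes. That share was the highest among the 12 families plotted by direction, and it was not tested. At an unadjusted limma p under 0.05 there were 3 of the 6, beside 55.5% of all listed genes. Ptpn3, a membrane-cytoskeleton phosphatase with FERM and PDZ domains, had 6.80 and 8.83 in SmoM2 and 11.3 and 13.3 in WT. Ptpn3 fell by 0.63 log2 units in the authors' deposited table (adjusted p = 4.22e-05), and its limma difference on log2(level + 1) was -0.60 ± 0.18 (SE) before and -0.50 ± 0.16 after GC trend removal. Its relative Ptpn4 had 6.84 and 5.16 in SmoM2 and 6.99 and 9.47 in WT. Ptpn4 fell by 0.48 log2 units in the authors' deposited table (adjusted p = 0.00147), and its limma difference on log2(level + 1), -0.40, was -0.22 without SmoM2 replicate 2 and -0.20 without WT replicate 2. Ptpn14, a FERM-domain phosphatase linked to the Hippo pathway, had 1.99 and 1.92 in SmoM2 and 1.05 and 1.12 in WT, both low. Ptpn14 rose by 0.73 log2 units in the authors' deposited table (adjusted p = 0.00992). Ptpn5, the striatum-enriched phosphatase STEP that acts on ERK and on glutamate receptors, had 103 and 124 against 86.7 and 80.5. Ptpn5 rose by 0.37 log2 units in the authors' deposited table (adjusted p = 0.0128). Summed striatal markers were 312 and 532 in SmoM2 and 398 and 214 in WT, overlapping between the groups, with the highest and lowest samples the same as for Ptpn5, and their part was not tested. Ptpn23, of endosomal sorting, had 16.1 and 18.0 in SmoM2 and 10.3 and 13.7 in WT. It rose by 0.44 log2 units in the authors' deposited table (adjusted p = 0.00793), with a limma difference on log2(level + 1) of 0.48 that was 0.29 without WT replicate 1. The differences of the other called genes of the family shrank on GC trend removal, from -0.40 to -0.10 for Ptpn4, from 0.50 to 0.22 for Ptpn14 and from 0.48 to 0.04 for Ptpn23, and that of Ptpn5 turned from 0.43 to -0.02.

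Of 8 dual-specificity phosphatases, several of which switch MAP kinases off, 1 rose and 1 fell. The share called was 25%, beside 38.9% of all listed genes. Without overlap between the groups were 7 of the 8, beside 85% of all listed genes. Dusp26, a neural member of the family, had 114 and 115 in SmoM2 and 79.0 and 84.8 in WT. Dusp26 rose by 0.38 log2 units in the authors' deposited table (adjusted p = 0.0192). Dusp3, which acts on ERK and JNK, had 102 and 96.4 in SmoM2 and 119.8 and 107 in WT. Dusp3 fell by 0.38 log2 units in the authors' deposited table (adjusted p = 0.0105), and its limma difference on log2(level + 1), -0.19, was -0.12 without WT replicate 1. Dusp1, an early response gene, had 24.7 and 22.7 in SmoM2 and 26.0 and 31.2 in WT. Dusp1 was not called (adjusted p = 0.273 in the authors' deposited table). Its transcript GC is 54.9%, in the range of 50% to 55% where 74.6% of the other listed genes were higher. It lay furthest below the GC trend, a distance that depends on the curve from the selected list. Its limma difference on log2(level + 1) was -0.65 ± 0.13 (SE) after removal, close to the -0.64 of Camk2n1. From the levels as deposited the Dusp1 difference was -0.26, and it was -0.13 without WT replicate 2 and -0.38 without WT replicate 1. Dusp8, a phosphatase of JNK and p38, had 78.5 and 82.0 in SmoM2 and 64.2 and 63.4 in WT and was not called. The same removal took the difference of Dusp26 from 0.48 to 0.03 and turned that of Dusp8 from 0.33 to -0.13.

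Phosphatases and tyrosine kinases outside the symbol rule gave mixed directions too. Of 28 other protein phosphatases 12 had a row, and 2 rose and 4 fell, 50% called beside 38.9% of all listed genes. Ppm1m, of the PP2C family, had 30.3 and 29.0 in SmoM2 and 18.0 and 10.9 in WT, and Ppm1k, the mitochondrial phosphatase of branched-chain amino acid breakdown, had 12.7 and 9.74 against 12.7 and 15.9. Ppm1m rose by 0.62 log2 units and Ppm1k fell by 0.64 (adjusted p = 0.00817 and 9.32e-06 in the authors' deposited table). Eya4, a transcriptional coactivator with phosphatase activity, fell by 0.94 log2 units (adjusted p = 0.0161 in the authors' deposited table). Of 27 tyrosine kinase genes 9 were listed at or above the level threshold, and 3 rose and 1 fell. This made 44.4% called, near the 38.9% of all listed genes. Erbb3, a neuregulin receptor, had 1.46 and 1.37 in SmoM2 and 2.58 and 2.73 in WT, and fell by 0.98 log2 units (adjusted p = 0.000662 in the authors' deposited table). Csk, which restrains Src kinases, and Fgfr1, a fibroblast growth factor receptor, rose by 0.55 and 0.46 log2 units (adjusted p = 0.000178 and 0.00194 in the authors' deposited table).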

How the data were processed

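Pooled corpus callosum and cortex of 2 SmoM2 and 2 WT samples at postnatal day 15 was sequenced, with 1 µg total RNA per TruSeq library, per the labels' protocols. The authors deposited 1 table of 5282 genes selected by p. Per the submitters' processing notes, RSEM, DESeq2 and GRCm38.p6 are named, with no roles stated. The deposited expression signal per sample looks length-scaled from its values, but TPM or FPKM is not stated. Sequencing depth is unknown, since the deposited signal holds no counts. Also deposited by the authors are a ratio (fold change, SmoM2 over WT), the log2 of it, and p-values before and after adjustment. The authors' log2 fold change minus the log2 ratio of the deposited levels has a median of -0.0763.

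A call means that the authors' deposited adjusted p is 0.05 or less. limma 3.58.1 in R 4.3.3 was fitted with a mean-variance trend to log2(level + 1) of the 4845 genes whose mean level reached 1, adjusted over 57010 tests, after it was tested on simulated data. Such differences understate the change of low genes. Transcript GC came from GENCODE M21. The alternatives were other pseudocounts, scalings, level filters and thresholds, the replicate block, each sample left out and, added later, removal of a GC trend. Members, lists and tests were chosen with earlier results of these data known.

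Genes were named by a rule: in each family up to 3 called members of largest absolute log2 fold change whose groups did not overlap (failing that, the most abundant member); on each side the 4 of highest level and the 4 highest and 4 lowest called fold changes; and up to 3 called genes of each pathway list. It gave 37 members, of which 36 are described and 1 is not reported here. Another 38 members, and genes of the lists beyond it, were named after their values were seen.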

Additional observations from a re-analysis of the deposited data

How the results depend on the processing

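Of the members, 51 had a limma difference above 0 with every pseudocount and scaling tried, 53 without a level filter, 46 at a mean level of at least 5 and 47 with the GC trend removed. The range over left-out samples was 51 to 54. limma called 0 members in every setting, with 61 at an unadjusted p under 0.05 in the levels as deposited. With the threshold on the authors' deposited adjusted p at 0.01, 19 members rose and 11 fell, against 26 and 19 at 0.05. Quantile normalization moved the median of all listed genes by -0.104 on the log2 scale, equal medians by -0.0942 and GC trend removal by -0.185. Labels give both groups replicate numbers 1 and 2. The correlation of the same-numbered deviations was -0.0934 over 4845 genes. The labels do not say whether same-numbered samples share more than a number. A correlation over genes selected by p on these samples cannot settle it. With the replicate block 51 members were above 0 and 0 were called, and the limma calls among all listed genes went from 6 to 20.

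Of 74 named genes, 73 to 74 kept the direction of their limma difference in each setting but GC trend removal, apart from genes under the level filter. Over left-out samples the difference ran from -0.189 to 0.0752 for Mapk8, with the sign turned without WT replicate 2. With the GC trend removed 46 kept it and 27 turned, in log2(level + 1). Turned downward were Cdk18 (-0.148), Cdk5r2 (-0.122), Csnk1g2 (-0.186), Dusp8 (-0.127), Map3k10 (-0.0679), Mapk8ip2 (-0.129), Mapk8ip3 (-0.0484), Ppp1r14b (-0.165), Ppp1r1a (-0.0398), Ppp2r5b (-0.0454), Ptpn5 (-0.0165), Ptpru (-0.218), Stk11 (-0.0778) and Stk32c (-0.0135). Turned upward were Cdk19 (0.0140), Csnk1a1 (0.0905), Csnk1g3 (0.0399), Dclk1 (0.00250), Map3k7 (0.0254), Mapk8 (0.213), Ppp2r3a (0.0145), Ppp2r5c (0.0952), Ppp3cb (0.0230), Ppp4r3b (0.109), Ppp6c (0.200), Prkacb (0.0592) and Prkar1a (0.0756). The cause was not tested. Spearman's rho of the members' deposited log2 fold change with GC was 0.768 when GC was averaged over all transcripts of a gene, against 0.769.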
